A study of Mus musculus with 12 samples.

Results

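A set of 104 mouse genes lay outside the range of both wild-type cell states in Sirt1 knockout cells, whether or not Otx2 was also knocked down. They were drawn from 20315 named loci by their levels in 12 RNA libraries of mouse pluripotent cells. The libraries form 4 groups of 3, all of strain C57 Bl/6J. The wild-type groups are embryonic stem cells (WT ESC) and the epiblast-like cells made from them (EpiLC). The other groups are ESC in which Sirt1 was knocked out (Sirt1KO) and such cells in which Otx2 was knocked down as well (Sirt1KO Otx2KD). Per the labels' protocols, ESC of all genotypes were kept naive in LIF with PD0325901 at 1 uM, which blocks MEK, and CHIR99021 at 3 uM, which blocks GSK3. EpiLC were wild-type cells moved to fibronectin for 48 h in Fgf2 at 12 ng/ml, Activin A at 20 ng/ml and KOSR at 1%. The design asks which transcripts differ after loss of Sirt1, how they compare with those of the naive-to-primed transition, and which of them depend on Otx2. The part of Sirt1 that was deleted, the way Otx2 was lowered, the number of cell lines or clones behind a group and whether replicates were separate cultures are not given in the sources used here. No wild-type cells with Otx2 knockdown were analysed here, so the knockdown is seen only on the Sirt1KO background. Any other difference between the Sirt1KO and Sirt1KO Otx2KD groups, such as in cell lines or cell make-up, cannot be told apart from the knockdown. Changes described below as occurring with Otx2 knockdown are differences between these groups.

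A gene was a member when its mean log2(FPKM + 1) in both Sirt1KO groups was at least 0.8 above the higher, or at least 0.8 below the lower, of the WT ESC and EpiLC means. Loci on chromosomes 8, 11 and Y were left out. FPKM is fragments per kilobase of transcript, scaled to the number of mapped fragments, and the added 1 makes differences of genes with low FPKM smaller than their ratios. The rule placed 61 genes higher and 43 lower. The members were thus chosen by measured levels in all 4 groups. Because the rule used the distance of each Sirt1KO group from WT ESC and from EpiLC, those distances are given below as descriptions, with a standard error and no test. The difference between the Sirt1KO Otx2KD and Sirt1KO groups was not part of the rule and was tested, although requiring both groups beyond the margin limits how far they can lie apart.

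Sirt1 is an NAD-dependent deacetylase that acts on histones and on other proteins, among them transcription factors. Naive ESC resemble the epiblast before implantation, and EpiLC resemble it shortly afterwards, when Otx2, a homeobox transcription factor, is high. The members lie outside the range set by these 2 states, whichever of them is the higher. Among the members are genes of imprinted regions, which are expressed from a single parental copy according to DNA methylation set in the germ line.

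The promoters of 4 genes show the sequence around members to which the results below return. Meg3 and Dio3 lie in the same imprinted region and moved in opposite directions, and Egln3 and Dll1 are the lower members whose promoter window held an octamer, the letters ATGCAAAT that POU factors such as Oct4 bind. Each run is the 250 bases before the transcription start in RefSeq on build GRCm38.p6, read 5′ to 3′ on the strand of the gene. For Meg3 (plus strand, chr12:109540746-109540995) and Dio3 (plus strand, chr12:110278980-110279229) capitals mark CpG dinucleotides, the sites of DNA methylation. For Egln3 (minus strand, chr12:54203875-54204124) and Dll1 (minus strand, chr17:15375824-15376073) they mark the octamer on either strand.
Meg3: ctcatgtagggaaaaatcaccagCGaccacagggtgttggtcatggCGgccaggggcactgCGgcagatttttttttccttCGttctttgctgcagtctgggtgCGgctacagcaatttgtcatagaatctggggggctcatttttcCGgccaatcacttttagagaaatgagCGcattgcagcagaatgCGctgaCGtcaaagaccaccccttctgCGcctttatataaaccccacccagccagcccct
Dio3: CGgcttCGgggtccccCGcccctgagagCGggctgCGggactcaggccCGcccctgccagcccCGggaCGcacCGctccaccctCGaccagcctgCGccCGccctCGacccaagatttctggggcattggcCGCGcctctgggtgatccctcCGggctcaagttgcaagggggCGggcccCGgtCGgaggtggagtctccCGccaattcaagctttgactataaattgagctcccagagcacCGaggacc
Egln3: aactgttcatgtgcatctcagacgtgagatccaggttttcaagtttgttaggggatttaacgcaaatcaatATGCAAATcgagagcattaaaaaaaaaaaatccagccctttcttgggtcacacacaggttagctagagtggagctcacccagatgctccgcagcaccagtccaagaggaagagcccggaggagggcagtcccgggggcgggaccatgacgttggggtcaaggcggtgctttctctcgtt
Dll1: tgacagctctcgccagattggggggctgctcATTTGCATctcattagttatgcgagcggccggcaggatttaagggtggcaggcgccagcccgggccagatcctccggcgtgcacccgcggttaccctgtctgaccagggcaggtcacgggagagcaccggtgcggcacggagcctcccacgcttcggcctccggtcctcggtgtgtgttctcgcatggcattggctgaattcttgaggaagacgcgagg
The Meg3 run holds 10 CpG and the Dio3 run 21. The octamer begins 179 bases before the Egln3 start and 219 bases before the Dll1 start.

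Relative depth of the libraries, estimated from the step that a single fragment adds to low FPKM values, since no counts are given, ranged from 0.768 to 1.34 of the first WT ESC library. Sirt1 stood at 25.8 ± 0.412 FPKM in WT ESC (mean ± SD, n = 3, as for all levels below), 33.2 ± 1.24 in EpiLC, 15.5 ± 0.196 in Sirt1KO, then 15.6 ± 0.492 in Sirt1KO Otx2KD. Sirt1 transcript was thus lower but still present in both knockout groups, and this value over the whole locus does not separate the deleted part. Otx2 was at 7.38 ± 0.458, 100.2 ± 3.45, 27.0 ± 6.36 and 6.07 ± 0.401 FPKM in the same order. Pou5f1, which encodes Oct4, lay between 592.3 and 670.1 FPKM in all 12 libraries, but other pluripotency genes varied. In the same order of groups, Nanog was at 542.4 ± 12.5, 96.9 ± 6.61, 388.0 ± 38.0 and 602.1 ± 20.4 FPKM. Sox2 was at 263.0 ± 17.6, 155.5 ± 5.77, 169.4 ± 6.81 and 219.5 ± 2.08. Zfp42 was at 271.8 ± 5.19, 99.6 ± 2.67, 235.4 ± 14.7 and 295.6 ± 3.05. Fgf5 was at 0.186 ± 0.0223, 6.11 ± 0.981, 3.02 ± 1.15 and 0.466 ± 0.156. Pou3f1 was at 1.34 ± 0.0159, 33.0 ± 2.17, 9.93 ± 2.20 and 2.28 ± 0.186. The chromosomes that the rule leaves out set WT ESC apart from the other 3 groups: the median log2 difference from WT ESC was 0.40, 0.46 and 0.36 on chromosome 8 and -0.46, -0.49 and -0.39 on chromosome 11, for EpiLC, Sirt1KO and Sirt1KO Otx2KD. With 3 libraries a group and no statement that they were separate cultures, errors and p-values describe the spread between these libraries, which may be technical.

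Of the 104 members, 91 carry names of protein-coding or long RNA genes and 13 carry names of microRNA, small nucleolar or ribosomal RNA genes. In 90 of the 91 every Sirt1KO and Sirt1KO Otx2KD library lay on the same side of every wild-type library, and in 0 of the 13 short or ribosomal RNA members did they do so. Over all 12320 loci tested, 12.6% had no overlap between the 6 knockout and 6 wild-type libraries, and the rule itself makes this likely for members, so nothing is read from the count. The exception among the 91 was the merged locus of Cdk9, Mir2861 and Mir3960, at 24.1 to 996 FPKM in the knockout libraries and 15.5 to 32.5 in wild-type ones. The median margin was 1.01 log2 units among the 50 higher and also 1.01 among the 41 lower genes. Members were of moderate abundance: the median group mean on the side where a gene was high was 8.21 FPKM for higher and 7.22 FPKM for lower genes. At the edge of the rule, Usp39 (0.81), Gpx2-ps1 (0.81) and Smarcad1 (0.81) were the last genes inside on the higher side, and Hoxc4 (0.80), Ggct (0.80) and Mad2l1 (0.79) the first outside it. On the lower side Rab33a (0.81) was just inside, and the first outside were Bnc2 (0.80), Serinc5 (0.79) and Wnt5b (0.78), so the boundary falls among near-equal genes.

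**Figure D1:**
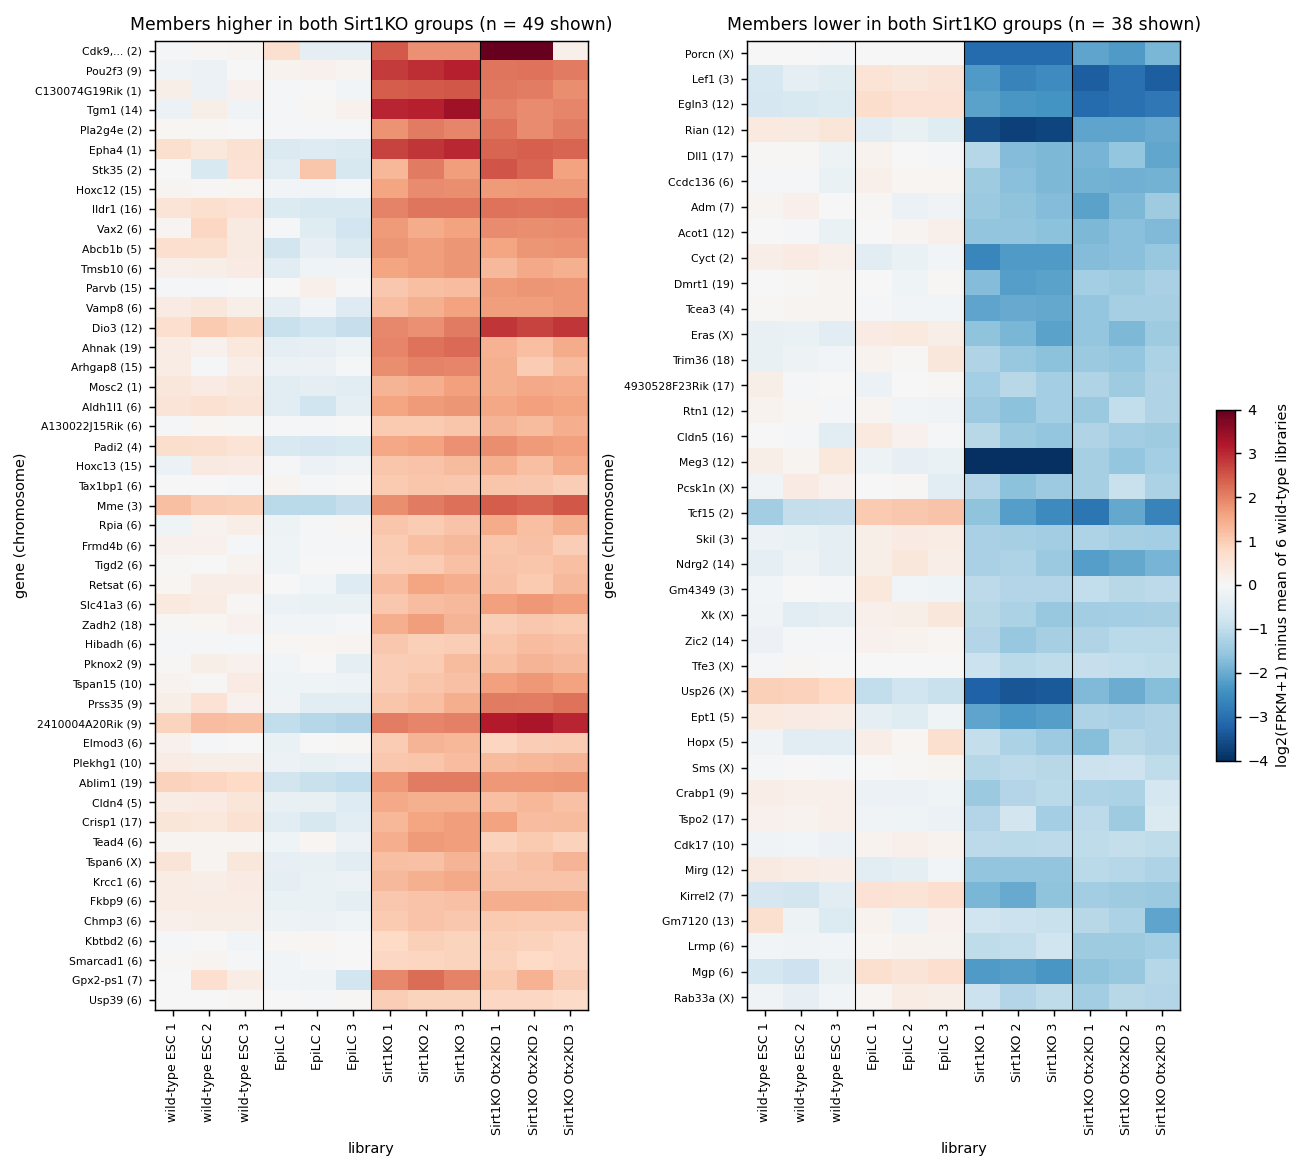
Level of 87 of the 91 members that are not short or ribosomal RNA genes in each of the 12 libraries, as log2(FPKM + 1) minus the mean of the 6 wild-type libraries of that gene; rows are genes with their chromosome, columns are libraries, and colours are capped at 4 log2 units either way. The 49 higher members shown are warm and the 38 lower members shown cold in both knockout groups, by the rule that chose them, while the shade differs between Sirt1KO and Sirt1KO Otx2KD for genes such as Meg3, Rian, Usp26 and Tgm1.

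Among transcription factors, the member with the widest margin was Pou2f3, a POU-domain factor known from keratinocytes and from tuft cells (chromosome 9, mm9 position 42932022 to 43013838). Its FPKM was 0.895, 0.778 and 1.09 in WT ESC, 1.31, 1.37 and 1.30 in EpiLC, 13.7, 15.5 and 17.2 in Sirt1KO, then 8.24, 8.502 and 7.87 in Sirt1KO Otx2KD. All 6 knockout libraries stood far above the wild-type ones, and the Sirt1KO Otx2KD libraries lay below the Sirt1KO libraries with no overlap. The difference from WT ESC was 3.09 ± 0.09 log2 units in Sirt1KO and 2.26 ± 0.09 in Sirt1KO Otx2KD, and the second group was lower than the first by a tested log2 difference of -0.83 ± 0.09 (limma, Benjamini-Hochberg adjusted p = 1.83e-06). Tead4, a DNA-binding partner of the Hippo pathway co-activators that is needed for trophectoderm, showed the same order. Its FPKM was 3.99, 4.01 and 3.9998 in WT ESC and 3.09, 3.89 and 2.98 in EpiLC, against 11.8, 14.0 and 13.9 in Sirt1KO, then 7.83, 8.63 and 7.70 in Sirt1KO Otx2KD. Here too the knockdown group was between the wild-type and the Sirt1KO libraries (log2 -0.65 ± 0.09 against Sirt1KO, limma adjusted p = 1.99e-05). The homeobox genes Vax2, known from eye development, and Pknox2, a TALE-class homeobox gene, were weak in all groups, at 4.25 to 5.99 FPKM and 2.04 to 2.90 FPKM in the knockout libraries. Neither passed the test between the knockout groups (Vax2 limma adjusted p = 0.189, Pknox2 limma adjusted p = 0.169).

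Hoxc12 and Hoxc13, neighbours at the posterior end of the Hoxc cluster on chromosome 15 (mm9 positions 102767284 to 102771238 and 102751562 to 102759245), were both higher members. Hox genes pattern the body axis after implantation and are mostly silent in ESC. Hoxc12 was at 0.169, 0.103 and 0.133 FPKM in WT ESC and 0, 0 and 0.0380 in EpiLC, against 2.22, 2.93 and 2.88 in Sirt1KO, then 2.46, 2.55 and 2.60 in Sirt1KO Otx2KD. Hoxc13 was at 0.620, 1.44 and 1.35 and 0.824, 0.598 and 0.699 FPKM in the wild-type groups and 3.05, 3.19 and 3.60 and 4.08, 3.35 and 4.32 in the knockout groups. Both were low genes whose knockout libraries stood above all wild-type ones, and neither passed the test between the knockout groups (Hoxc12 log2 -0.05 ± 0.09, limma adjusted p = 0.645; Hoxc13 log2 0.20 ± 0.14, limma adjusted p = 0.231). Across the rest of the cluster the pattern was found again in Hoxc4, just outside the margin, at 1.58 to 2.11 FPKM in the knockout libraries and 0.0416 to 0.611 FPKM in the wild-type ones. The genes between, Hoxc5 to Hoxc11, stayed under 1 FPKM in all 12 libraries. Of these, Hoxc11 alone had no overlap, at 0.106 to 0.719 FPKM in the knockout libraries and 0 to 0.104 in the wild-type ones. The Hox list used here held 17 genes of the 4 clusters, without Hoxc12 and Hoxc13, and 3 of them were abundant enough to test.

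The higher members included genes of epithelial barriers and adhesion. Tgm1, the transglutaminase that cross-links the envelope of keratinocytes (chromosome 14, mm9 position 56318846 to 56332329), was at 0.522, 1.10 and 0.625 FPKM in WT ESC and 0.684, 0.843 and 0.998 in EpiLC. In Sirt1KO it reached 13.8, 14.3 and 17.6 FPKM, and in Sirt1KO Otx2KD it stood at 6.28, 5.61 and 5.86. The Otx2 knockdown libraries thus lay between the others without touching either, and the tested log2 difference from Sirt1KO was -1.22 ± 0.12 (limma adjusted p = 1.26e-06). Cldn4, a claudin of tight junctions, was already abundant in WT ESC at 50.5, 52.1 and 57.4 FPKM, and was at 33.2, 33.7 and 28.8 in EpiLC, 119, 113 and 113 in Sirt1KO, then 96.3, 104 and 94.0 in Sirt1KO Otx2KD. This smaller fall with Otx2 knockdown also passed the test (log2 -0.23 ± 0.06, limma adjusted p = 0.00571). Ildr1, a protein of the junctions where 3 cells meet, was at 7.83, 8.46 and 8.08 FPKM in WT ESC, 3.12, 2.96 and 3.00 in EpiLC, 23.03, 25.9 and 25.6 in Sirt1KO, then 26.5, 25.8 and 26.5 in Sirt1KO Otx2KD, and did not pass it (log2 0.08 ± 0.06, limma adjusted p = 0.238).

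The epithelial and keratinocyte list, written from general knowledge with earlier results of these data known, gives the setting for Tgm1 and Cldn4, its 2 members of the set. Of its 22 tested genes, 14 were called higher and 3 lower in Sirt1KO against WT ESC, with a median log2 difference of 0.69, and over all loci 32.4% were called higher, 32.7% lower (65.0% in either direction) and the median was 0.01. In Sirt1KO Otx2KD against WT ESC the counts were 9 and 5, with a median of 0.13, where 27.1% and 26.8% of all loci were called higher and lower (53.9% in either direction). Against Sirt1KO, 17 of the 22 were lower and 4 higher in Sirt1KO Otx2KD, with a median of -0.62, where 31.5% of all loci were lower, 31.1% higher and the median was -0.01. Tgm1 and Cldn4 are the list's genes that kept a level beyond both wild-type states by the margin in both knockout groups.

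Among the other higher members were genes for proteins at the plasma membrane. Epha4, a receptor tyrosine kinase for ephrins, was at 6.63, 5.64 and 6.50 FPKM in WT ESC, 2.31, 2.47 and 2.33 in EpiLC, 30.9, 35.2 and 38.7 in Sirt1KO, then 23.7, 25.2 and 24.1 in Sirt1KO Otx2KD. The 2 wild-type states differed as well, so that the knockout groups lay farther from EpiLC than from ESC, and the knockdown group was again lower than Sirt1KO (log2 -0.50 ± 0.08, limma adjusted p = 7.23e-05). Abcb1b, a P-glycoprotein that pumps drugs and lipids out of cells, was at 5.33, 5.15 and 4.05 FPKM in WT ESC, 1.38, 2.17 and 1.67 in EpiLC, 12.6, 11.7 and 12.6 in Sirt1KO, then 10.8, 12.6 and 12.8 in Sirt1KO Otx2KD. The knockout groups were interleaved for this gene (log2 -0.03 ± 0.11, limma adjusted p = 0.815). Ahnak, a very large scaffold protein under the plasma membrane, was at 3.58, 3.23 and 3.97 FPKM in WT ESC, 1.93, 1.99 and 2.24 in EpiLC, 13.5, 16.005 and 17.0 in Sirt1KO, then 8.84, 7.68 and 9.37 in Sirt1KO Otx2KD, a fall with knockdown of log2 -0.78 ± 0.09 (limma adjusted p = 8.46e-06). Arhgap8, a GTPase-activating protein whose locus shares its coordinates with another named locus, fell in like manner (log2 -0.69 ± 0.11, limma adjusted p = 9.58e-05). Parvb, the focal adhesion protein beta-parvin, went the other way, from 2.91, 3.06 and 3.09 FPKM in WT ESC and 3.25, 3.77 and 2.96 in EpiLC to 7.81, 8.66 and 8.77 in Sirt1KO, then 12.4, 13.1 and 12.9 in Sirt1KO Otx2KD. It rose further with Otx2 knockdown (log2 0.55 ± 0.07, limma adjusted p = 2.13e-05). So did the tetraspanin Tspan15 (log2 0.57 ± 0.08, limma adjusted p = 4.31e-05), the protease-like Prss35 (log2 0.85 ± 0.12, limma adjusted p = 4.64e-05) and 2410004A20Rik, which carries no descriptive name in the files (log2 1.14 ± 0.09, limma adjusted p = 1.37e-07). 2410004A20Rik also had a wide span between the wild-type states, at 6.13, 8.04 and 7.81 FPKM in ESC and 0.929, 0.749 and 0.675 in EpiLC, with 15.0, 13.9 and 14.6 in Sirt1KO, then 33.7, 35.6 and 30.4 in Sirt1KO Otx2KD.

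Enzymes of several kinds were among the higher members. Mosc2, a mitochondrial molybdenum enzyme that reduces amidoximes, was at 24.1, 22.1 and 24.2 FPKM in WT ESC, 12.8, 13.1 and 12.9 in EpiLC, 46.3, 49.1 and 55.9 in Sirt1KO, then 48.8, 51.8 and 50.8 in Sirt1KO Otx2KD. The knockout groups overlapped, with a log2 difference of 0.01 ± 0.06. Aldh1l1, the folate enzyme 10-formyltetrahydrofolate dehydrogenase, was at 4.56, 5.01 and 4.60, 1.85, 1.26 and 2.05, 10.6, 11.8 and 12.4 and 10.5, 11.2 and 10.7 FPKM in the same order of groups. It did not pass the test between the knockout groups either (log2 -0.09 ± 0.10, limma adjusted p = 0.436). Pla2g4e, a cytosolic phospholipase A2, was near 0 in the wild-type groups, at 0.116, 0.0938 and 0.0456 FPKM in ESC and 0, 0.0173 and 0.0260 in EpiLC, and was at 2.65, 3.39 and 3.07 in Sirt1KO, then 3.68, 2.92 and 3.35 in Sirt1KO Otx2KD. Padi2, which converts arginine in proteins to citrulline, and Mme, the membrane peptidase neprilysin, were at 6.24 to 8.12 FPKM and 13.1 to 20.5 FPKM in the knockout libraries. Mme rose further with Otx2 knockdown (log2 0.36 ± 0.09, limma adjusted p = 0.00385). In EpiLC these 2 genes were at 0.553 to 0.637 and 0.813 to 1.03 FPKM, far below WT ESC at 2.67 to 3.08 and 6.48 to 7.83 FPKM.

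Chromosome 6 held 20 of the 61 higher members, 3.48% of its 575 tested loci. All 61, counting Mir568, Mir1894 and Mir1930, which were not tested, came to 0.576% of the 10598 tested loci on the chromosomes kept. Of the 20 on chromosome 6, 14 lay in a segment between 52 and 73 Mb (mm9), whose bounds were chosen after the positions of the members were seen. They were Tax1bp1, Hibadh, Fkbp9, Kbtbd2, Tigd2, Smarcad1, Tmsb10, Vamp8, Retsat, Elmod3, Rpia, Krcc1, Chmp3 and Usp39, genes of unrelated roles. Tax1bp1, an autophagy receptor, was at 24.5, 24.5 and 23.4 FPKM in WT ESC, 26.9, 23.9 and 25.2 in EpiLC, 51.6, 54.4 and 52.97 in Sirt1KO, then 54.1, 53.2 and 49.9 in Sirt1KO Otx2KD. Its neighbour Hibadh, an enzyme of valine breakdown, was at 13.4, 13.9 and 13.7, 14.8, 15.2 and 15.5, 31.7, 28.6 and 29.7 and 32.4, 34.8 and 33.9 FPKM in the same order. Usp39, a splicing factor, was at 22.8, 22.8 and 23.9, 22.99, 22.3 and 24.2, 46.3, 43.4 and 43.4 and 42.0, 41.5 and 40.3 FPKM. The knockout libraries of these 3 genes stood above all wild-type ones. The knockout groups did not pass the test between them for Tax1bp1 and Usp39 (limma adjusted p = 0.784 and 0.0558), and Hibadh rose slightly further with Otx2 knockdown (log2 0.16 ± 0.05, limma adjusted p = 0.00875).

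Other loci of the segment were raised as well. Over its 51 tested loci that were not members the median log2 difference was 0.57 for Sirt1KO and 0.74 for Sirt1KO Otx2KD against WT ESC, and 0.62 and 0.84 against EpiLC. Both knockout group means were above both wild-type means at 35 of these 51 loci (68.6%), at 23.2% of the 501 other tested loci of chromosome 6 that were not members and at 14.9% of the 10497 such loci on all chromosomes kept. These values describe a segment drawn around the members and test nothing. Tmsb10, a thymosin that binds actin monomers, was the most abundant gene of the 14, at 77.02, 80.3 and 85.5 FPKM in WT ESC, 48.5, 60.0 and 60.9 in EpiLC, 204, 216 and 232 in Sirt1KO, then 168, 194 and 183 in Sirt1KO Otx2KD. Vamp8, a SNARE protein of late endosomes, was at 8.47, 9.28 and 7.85, 4.73, 5.97 and 4.20, 16.8, 19.3 and 21.8 and 22.8, 22.8 and 24.1 FPKM, and Fkbp9, a prolyl isomerase of the endoplasmic reticulum, at 46.6, 47.0 and 46.8, 31.0, 31.3 and 28.7, 81.3, 84.8 and 85.7 and 104, 106 and 102 FPKM. Once the median of the tested loci within 5 Mb was taken off each group mean, 4 of the 20 higher members on chromosome 6 still passed the margin (A130022J15Rik, Aldh1l1, Slc41a3 and Vax2), all of them outside the segment. Whether the knockout lines carried the segment in the same number of copies as the wild-type cells was not tested.

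**Figure D2:**
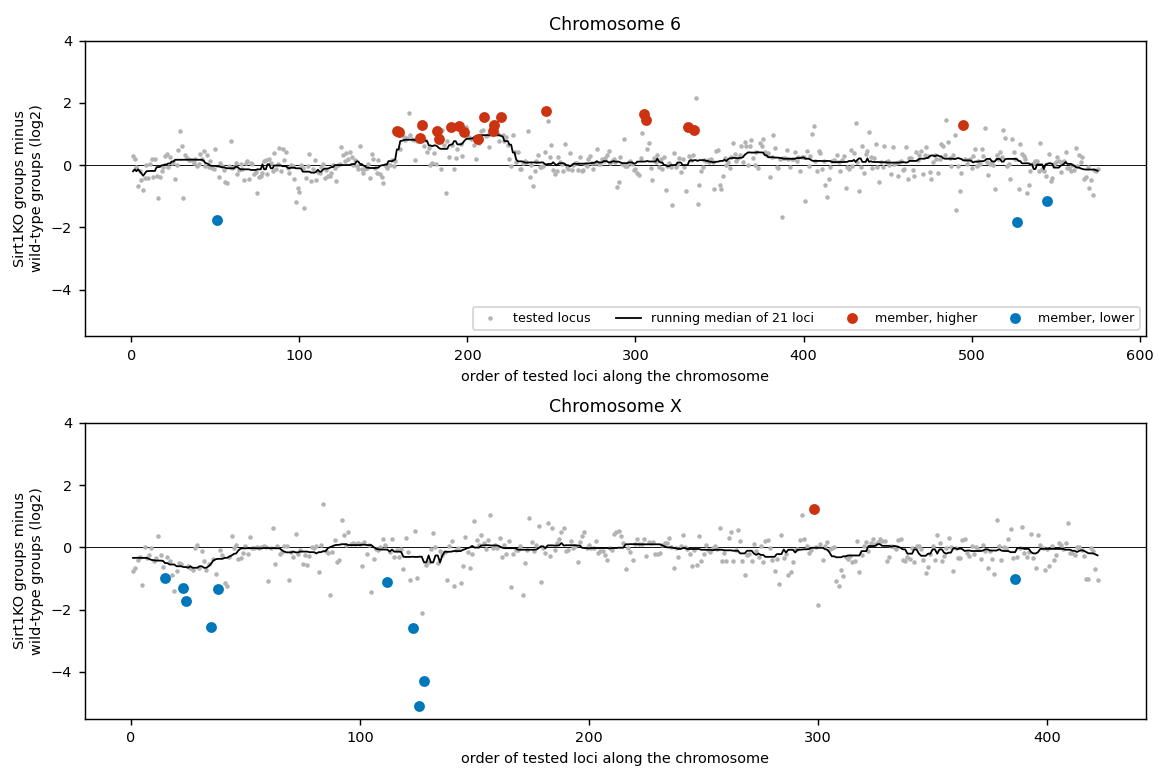
Mean log2(FPKM + 1) of the 2 knockout groups minus the mean of the 2 wild-type groups (vertical axis) for tested loci in their order along chromosomes 6 and X (horizontal axis); grey points are loci, the line is a running median of 21 loci, red points are higher and blue points lower members. On chromosome 6 the running median forms a raised plateau that holds 14 of the 20 higher members, and at the start of chromosome X it lies below 0 around 5 of the 10 lower members.

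Chromosome X held 10 of the 43 lower members, 2.37% of its 422 tested loci, beside 0.406% of tested loci overall. Of these, 5 (Porcn, Eras, Pcsk1n, Tfe3 and Xk) lay between 7 and 9 Mb, a segment whose bounds were likewise chosen after the members were seen. Over its 28 tested loci that were not members the median was -0.85 log2 units in Sirt1KO and -0.76 in Sirt1KO Otx2KD against WT ESC, but only -0.06 and -0.09 against EpiLC. Both knockout means were below both wild-type means at 10 of the 28 loci (35.7%), and at 16.2% of the 383 such loci on the rest of the chromosome. Porcn, the acyltransferase of the endoplasmic reticulum that lipidates Wnt proteins so that they can be secreted, had the widest margin of the 5 (mm9 position 7770976 to 7783651). It was at 14.8, 14.2 and 14.1 FPKM in WT ESC, 14.8, 14.55 and 14.8 in EpiLC, 0.853, 0.847 and 0.822 in Sirt1KO, then 2.63, 2.25 and 3.37 in Sirt1KO Otx2KD. Its difference from WT ESC, -3.06 ± 0.09 log2 units in Sirt1KO and -2.05 ± 0.09 in Sirt1KO Otx2KD, went well beyond these medians, and the part regained with Otx2 knockdown passed the test (log2 1.02 ± 0.09, limma adjusted p = 2.98e-07). Tfe3, a bHLH factor that regulates lysosomal genes and holds ESC in the naive state, was at 47.9, 52.8 and 52.1, 51.4, 51.1 and 51.4, 27.9, 23.6 and 24.9 and 26.6, 25.5 and 24.8 FPKM, a difference in Sirt1KO of -0.97 ± 0.06 log2 units from WT ESC and -0.99 ± 0.06 from EpiLC. Eras, a Ras-like gene of ESC, was at 18.1, 18.5 and 16.4, 28.4, 29.7 and 26.2, 6.56, 5.57 and 4.27 and 7.04, 5.75 and 7.73 FPKM, but its locus carries the same coordinates as that of Pcsk1n, so the 2 may not be separable. With the regional median removed, Porcn and Rab33a, a small GTPase, still passed the margin, as did 2 microRNA loci, and Eras, Pcsk1n, Tfe3, Xk, Sms and Usp26 did not.

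Of the X-linked lower members that are not short RNA genes, Usp26 had the largest difference between Sirt1KO and WT ESC (-4.23 ± 0.09 log2 units). It is a deubiquitinase gene expressed in testis, and its FPKM was 28.4, 27.4 and 25.4 in WT ESC, 6.75, 7.81 and 7.11 in EpiLC, 0.625, 0.415 and 0.466 in Sirt1KO, then 3.47, 2.80 and 3.61 in Sirt1KO Otx2KD. All 4 groups were distinct, and the level was higher in Sirt1KO Otx2KD than in Sirt1KO (log2 1.51 ± 0.09, limma adjusted p = 6.33e-09). Sms, the spermine synthase, moved less, at 13.2, 14.3 and 13.1 FPKM in WT ESC and 5.77, 6.21 and 5.95 in Sirt1KO. Dmrt1, the DM-domain factor of the gonad on chromosome 19, is the other member in the germline list, at 7.91, 8.32 and 8.70 FPKM in WT ESC, 8.21, 7.02 and 8.42 in EpiLC, 1.70, 0.969 and 1.04 in Sirt1KO, then 2.57, 2.39 and 2.73 in Sirt1KO Otx2KD (log2 0.69 ± 0.11 between the knockout groups, limma adjusted p = 0.000105). Of the 14 tested genes of that list, 3 were called higher and 8 lower in Sirt1KO, 3 and 5 in Sirt1KO Otx2KD, against WT ESC, where all loci gave 32.4% and 32.7%, and 27.1% and 26.8%. Between the knockout groups 8 were higher and 2 lower in Sirt1KO Otx2KD, beside 31.1% and 31.5% of all loci. Cyct, the cytochrome c of testis on chromosome 2, was not in the list but shared the pattern, at 91.3, 96.0 and 86.5, 55.7, 63.0 and 69.2, 11.5, 15.0 and 14.9 and 22.2, 22.8 and 25.7 FPKM, with a tested gain of log2 0.74 ± 0.10 (limma adjusted p = 4.59e-05).

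The Dlk1-Dio3 imprinted region on chromosome 12 gave 3 lower members and 1 higher one. Its maternal copy expresses the long non-coding RNAs Meg3, Rian and Mirg, and its paternal copy expresses Dlk1, Rtl1 and Dio3, with parental methylation upstream of Meg3 setting which side is active. Meg3 (mm9 position 110779206 to 110809939) was at 30.3, 27.9 and 34.8 FPKM in WT ESC, 22.3, 20.2 and 21.4 in EpiLC, 0.518, 0.332 and 0.505 in Sirt1KO, then 9.53, 8.08 and 9.31 in Sirt1KO Otx2KD. It was nearly absent in Sirt1KO and at an intermediate level in the knockdown group, with no overlap between any 2 groups. Rian was at 19.3, 18.97 and 20.7, 10.4, 11.5 and 9.99, 0.287, 0.161 and 0.213 and 2.61, 2.61 and 2.86 FPKM in the same order. Mirg was at 2.79, 2.65 and 2.58, 1.17, 1.28 and 1.73, 0 in all 3 Sirt1KO libraries, and 0.412, 0.353 and 0.251 FPKM. The 3 RNAs thus kept one order of groups, WT ESC, EpiLC, Sirt1KO Otx2KD and Sirt1KO from high to low. Their rise with Otx2 knockdown passed the test, at log2 2.78 ± 0.09 for Meg3 (limma adjusted p = 1.45e-11), 1.60 ± 0.07 for Rian (limma adjusted p = 5.71e-10) and 0.42 ± 0.10 for Mirg (limma adjusted p = 0.00191). The loci of Rian and Mirg share their coordinates with other named loci, and the deposited names merge Meg3 with Mir1906-1 and Mir770.

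Dio3, the deiodinase that inactivates thyroid hormone, lies at the far end of the region (mm9 position 111517440 to 111519307) and was a higher member. It was at 3.26, 4.45 and 3.92 FPKM in WT ESC, 0.441, 0.534 and 0.401 in EpiLC, 9.01, 8.44 and 10.2 in Sirt1KO, then 18.3, 16.5 and 18.3 in Sirt1KO Otx2KD. Unlike the maternal RNAs it moved farther from wild-type with Otx2 knockdown (log2 0.87 ± 0.09 against Sirt1KO, limma adjusted p = 2.76e-06). The paternal genes Dlk1 and Rtl1 were under 0.4 FPKM in all 12 libraries. All 7 members on chromosome 12 (Dio3, Meg3, Rian, Mirg, Egln3, Acot1 and Rtn1) still passed the margin once the regional median was removed. In the imprinted list, 7 of 26 tested genes were called higher and 13 lower in Sirt1KO against WT ESC (32.4% and 32.7% of all loci), and 3 and 11 in Sirt1KO Otx2KD (27.1% and 26.8%). Against Sirt1KO, 11 were higher and 8 lower in Sirt1KO Otx2KD (31.1% and 31.5%). Dio3, Meg3, Rian and Mirg were the only genes of that list in the set. Genes of fibroblasts and feeder cells, given below, were also lowest in Sirt1KO and higher with Otx2 knockdown, at 20 and 21 of 22 tested, and their part in the values of this region was not tested.

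**Figure D3:**
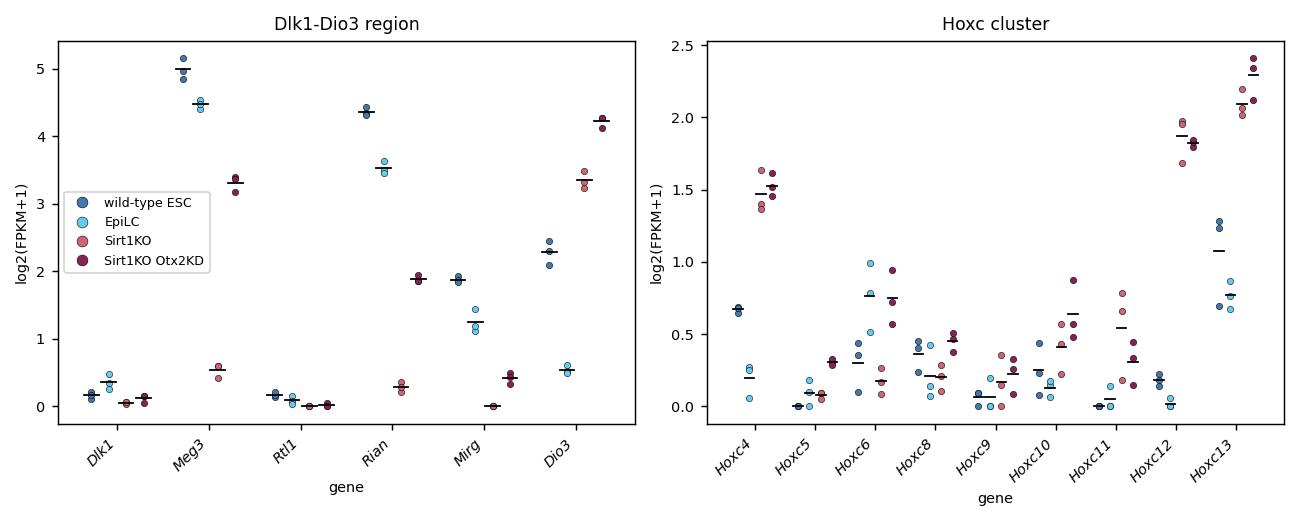
Level of genes in the Dlk1-Dio3 region and the Hoxc cluster as log2(FPKM + 1) (vertical axis), with a point for each library, a bar at the mean of 3 libraries and a colour for each of the 4 groups. Meg3, Rian and Mirg are lowest in Sirt1KO and partly regained in Sirt1KO Otx2KD, and Dio3 is highest in Sirt1KO Otx2KD. Of the Hoxc genes, Hoxc4, Hoxc12 and Hoxc13 stand above the wild-type libraries in both knockout groups, as does Hoxc11 at a lower level.

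Some microRNAs inside the Meg3 and Mirg loci and of the X-linked Mir106a cluster are shown by their mature sequences. Of that cluster only Mir18b and Mir363 were lower members. Mir92-2, which encodes miR-92a-3p, was at 0 FPKM in all WT ESC and Sirt1KO Otx2KD libraries. It was at 60.0, 145 and 72.7 in EpiLC and 0, 108 and 0 in Sirt1KO. Mir20b was above 0 in a single EpiLC library, Mir19b-2 was at 0 throughout, and the merged Kis2 and Mir106a locus stayed under 1 FPKM. In each sequence, capitals mark the seed, bases 2 to 8, which pairs with targets, and the sequences are from RefSeq on build GRCm38.p6.
miR-770-3p: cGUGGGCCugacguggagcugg
miR-369-3p: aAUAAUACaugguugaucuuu
miR-410-3p: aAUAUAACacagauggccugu
miR-18b-5p: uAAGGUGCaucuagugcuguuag
miR-363-3p: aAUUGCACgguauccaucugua
miR-92a-3p: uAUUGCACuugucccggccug
miR-363-3p and miR-92a-3p, both encoded in the Mir106a cluster, share a seed, while the others shown have seeds of their own within this group. The values at these loci come from libraries selected with oligo-dT, so they count fragments of longer transcripts and not the mature microRNAs.

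The 13 members with short or ribosomal RNA names rested on few libraries, and those at the shortest loci on few fragments. Mir18b was at 94.9, 96.2 and 0 FPKM in WT ESC, 88.2, 71.1 and 0 in EpiLC and 0 in all 6 knockout libraries. Its locus is 83 bases long, where a single fragment gives a high FPKM. The Mir18b values above 0 fell as estimated relative depth rose, from 96.2 FPKM at 0.986 to 71.1 FPKM at 1.34. The same small number of fragments in each library would give this, so the distance from 0 is one of few fragments. Mir363 was at 148, 450.5 and 0, 688, 888 and 667, 0, 124 and 0 and 0, 0 and 137 FPKM in the 4 groups. Neither separated all knockout from all wild-type libraries, since 1 WT ESC library was at 0 for each. On the higher side, 6 of the 11 were at 0 in all wild-type libraries and above 0 in 1 or 2 libraries of each knockout group, such as Mir568, at 0, 0 and 81.9 FPKM in Sirt1KO and 72.2, 0 and 0 in Sirt1KO Otx2KD. The Mir568 locus is also 83 bases long. Rmrp, the RNA of RNase MRP, was at 16.2, 44.2 and 359 FPKM in WT ESC, 347, 14.9 and 19.6 in EpiLC, 291, 306 and 94.5 in Sirt1KO, then 171, 221 and 152 in Sirt1KO Otx2KD, so a single library of each wild-type group was as high as the knockout ones. Rn45s, the ribosomal RNA precursor, had its highest library in EpiLC at 4077 FPKM, and its knockout libraries spanned 865 to 2376. None of the 10 such members that were tested passed the test between the knockout groups, and 3 (Mir568, Mir1894 and Mir1930) did not pass the filter on low values, which the 101 other members passed.

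**Figure D4:**
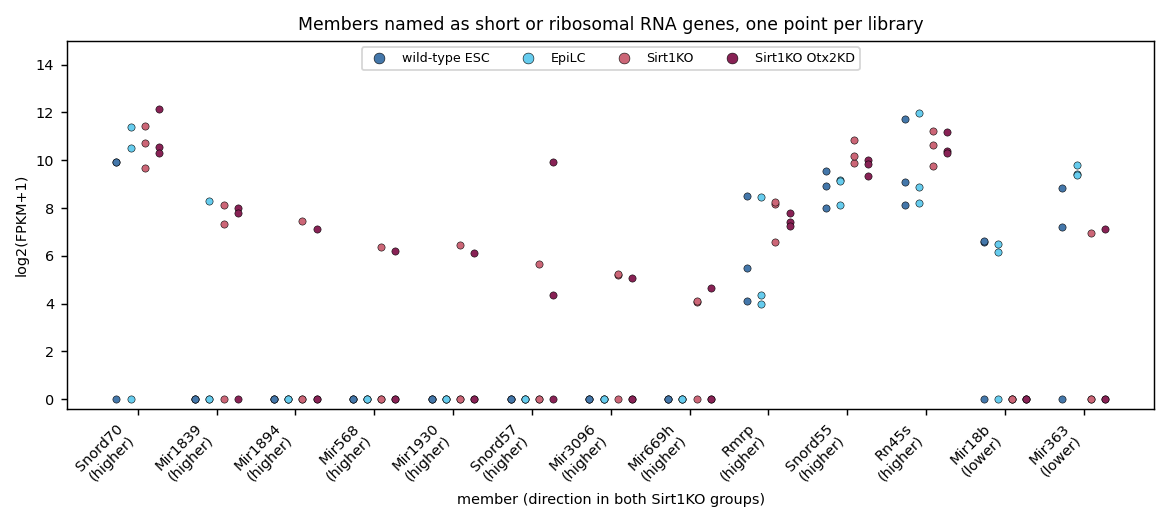
Level of the 13 members with short or ribosomal RNA names as log2(FPKM + 1) (vertical axis), with a point for each library coloured by group and the direction of each member under its name. In each of the 13, at least 1 knockout library overlaps the wild-type libraries, many of them at 0.

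Lef1, the nuclear partner of beta-catenin in Wnt signalling (chromosome 3, mm9 position 130813157 to 130927259), had the widest margin of the lower members outside the X chromosome. It was at 10.3, 12.2 and 11.4 FPKM in WT ESC, 24.6, 23.1 and 23.9 in EpiLC, 2.65, 1.75 and 2.05 in Sirt1KO, then 0.764, 1.19 and 0.787 in Sirt1KO Otx2KD. It was higher in EpiLC than in ESC, so the knockout cells lay beyond ESC on the side away from EpiLC. Its level was lower still in Sirt1KO Otx2KD than in Sirt1KO (log2 -0.71 ± 0.11, limma adjusted p = 6.22e-05). Tcf15, a bHLH factor of cells leaving the naive state, had the same order at 9.23, 12.7 and 13.1, 54.4, 55.4 and 57.2, 7.65, 4.77 and 3.51 and 2.58, 5.49 and 3.15 FPKM, and the knockout groups overlapped. Skil, the SnoN co-repressor that restrains TGF-beta signalling, was at 32.4, 31.7 and 29.5, 45.02, 47.9 and 47.5, 14.9, 14.8 and 13.9 and 15.6, 14.6 and 14.2 FPKM, and the 2 knockout groups were interleaved (log2 0.02 ± 0.05, limma adjusted p = 0.742). Zic2, a zinc finger factor of the primed epiblast, was at 39.8, 44.8 and 44.1 FPKM in WT ESC, 52.9999, 52.1 and 49.99 in EpiLC, 20.3, 15.8 and 18.0 in Sirt1KO, then 19.7, 21.6 and 21.7 in Sirt1KO Otx2KD. Lef1 and Zic2 are in the primed and formative list, where they moved against the majority in Sirt1KO. Of its 19 tested genes, 11 were called higher and 7 lower in Sirt1KO against WT ESC, 6 and 9 in Sirt1KO Otx2KD, and 3 were higher and 13 lower in Sirt1KO Otx2KD against Sirt1KO. In the Wnt list, where Lef1 was the member, 3 of 13 were called higher and 7 lower in Sirt1KO, and 3 and 8 in Sirt1KO Otx2KD, against WT ESC. The shares over all loci were 32.4% higher and 32.7% lower in Sirt1KO and 27.1% and 26.8% in Sirt1KO Otx2KD against WT ESC, and 31.1% and 31.5% between the knockout groups.

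Dll1, a ligand of Notch receptors, was at 6.01, 6.06 and 4.95 FPKM in WT ESC, 6.52, 5.86 and 5.63 in EpiLC, 2.11, 1.05 and 0.952 in Sirt1KO, then 0.886, 1.32 and 0.626 in Sirt1KO Otx2KD. Of the other Notch ligands, Dll3 was at 3.03 to 3.78 FPKM in WT ESC, 1.61 to 2.31 in Sirt1KO and 0.855 to 1.17 in Sirt1KO Otx2KD. Jag1 was at 15.0 to 16.2 FPKM in WT ESC but as low in EpiLC, at 5.35 to 5.92, as in Sirt1KO, at 5.78 to 6.71, and Jag2 did not follow this order. Among the ligands, Dll1 was thus the gene beyond both wild-type states by the margin. Egln3, the prolyl hydroxylase that marks HIF proteins for destruction, was at 12.0, 12.4 and 13.1 FPKM in WT ESC, 32.2, 29.7 and 29.5 in EpiLC, 3.62, 3.08 and 2.93 in Sirt1KO, then 1.43, 1.62 and 1.85 in Sirt1KO Otx2KD. Like Lef1 it was higher in EpiLC than in ESC and fell further with Otx2 knockdown (log2 -0.68 ± 0.08, limma adjusted p = 4.96e-06), as did Ndrg2 (log2 -0.70 ± 0.10, limma adjusted p = 2.68e-05). Adm, the peptide hormone adrenomedullin, was at 0.128 to 0.856 FPKM in the knockout libraries, against 3.27 to 4.76 in the wild-type ones.

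Crabp1, a carrier of retinoic acid inside the cell encoded on chromosome 9, was a lower member. It was at 35.6, 34.1 and 34.0 FPKM in WT ESC, 24.9, 25.3 and 26.3 in EpiLC, 9.99, 12.8 and 13.5 in Sirt1KO, then 12.2, 11.7 and 17.7 in Sirt1KO Otx2KD. The knockout libraries lay below all wild-type libraries, and the gene did not pass the test between the knockout groups (log2 0.17 ± 0.14, limma adjusted p = 0.287). In the retinoid list of carriers, enzymes and receptors, 2 of 12 tested genes were called higher and 6 lower in Sirt1KO, and 1 and 4 in Sirt1KO Otx2KD, against WT ESC, beside the same 32.4% and 32.7%, and 27.1% and 26.8%, of all loci. Retsat, which saturates retinol, stood with the higher members but within the chromosome 6 segment, at 2.499, 3.06 and 3.03, 2.38, 2.12 and 1.33, 6.90, 8.997 and 8.15 and 6.58, 5.88 and 7.26 FPKM.

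Other lower members had roles in transcription elongation and metabolism. Tcea3, a TFIIS elongation factor known from mouse ESC, was among the most abundant, at 65.3, 68.3 and 67.3 FPKM in WT ESC, 59.8, 58.0 and 57.8 in EpiLC, 13.6, 14.7 and 14.46 in Sirt1KO, then 20.6, 24.6 and 24.2 in Sirt1KO Otx2KD. The knockdown group regained part of the difference (log2 0.65 ± 0.06, limma adjusted p = 3.44e-07), and Ept1, an enzyme of phosphatidylethanolamine synthesis, did likewise (log2 0.95 ± 0.08, limma adjusted p = 3.44e-07). Acot1, a cytosolic acyl-CoA thioesterase, was at 15.1, 13.8 and 12.1, 14.7, 16.1 and 17.3, 4.25, 4.33 and 4.09 and 3.55, 3.99 and 3.65 FPKM, with no call between the knockout groups (limma adjusted p = 0.132). Ccdc136, on chromosome 6 outside the raised segment, was at 16.2, 16.03 and 13.8, 19.2, 17.7 and 17.5, 5.62, 4.57 and 4.03 and 3.75, 3.64 and 3.78 FPKM. Ccdc136 fell slightly further with Otx2 knockdown (log2 -0.27 ± 0.09, limma adjusted p = 0.0181), a call lost without Sirt1KO replicate 1 (limma adjusted p = 0.0892).

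Across the set, 46 of the 101 tested members differed between Sirt1KO Otx2KD and Sirt1KO (limma, adjusted p under 0.05). Over all 12320 loci, 62.6% were called between the knockout groups, 31.1% higher and 31.5% lower in Sirt1KO Otx2KD. The share called was 45.5% among tested members and 50.5% among the 91 that are not short or ribosomal RNA genes. Both lay below the share of all loci, but the rule limits how far the knockout groups of a member can lie apart. Nothing is therefore read from the lower share. With no regard to the test, the 3 libraries of each knockout group did not overlap at 67.2% of loci. Of the 58 tested higher members 13 rose further and 14 fell, and of the 43 lower members 14 rose and 5 fell further. In all, 28 of the calls were toward the wild-type groups and 18 away from them. The median log2 difference was -0.01 for higher and 0.05 for lower members, beside -0.01 for all loci. Measured as a share of the Sirt1KO shift from WT ESC, the shift left in Sirt1KO Otx2KD had a median of 98.9% among higher members (quartiles 79.3% and 123.7%) and 96.0% among lower members (79.4% and 113.7%). It was between 80% and 120% for 25 of the 58 and 24 of the 43, and under 50% for 3 and 2 of them. Both shifts share the WT ESC libraries, and the rule keeps members from returning within the wild-type range, so these shares describe the members and test nothing.

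**Figure D5:**
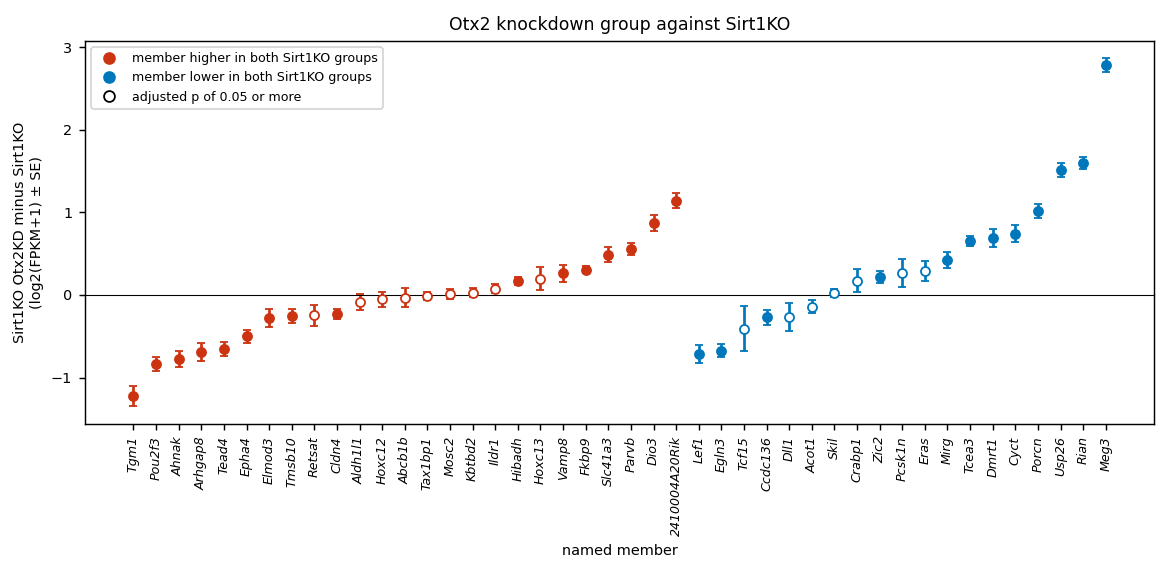
Difference of log2(FPKM + 1) between Sirt1KO Otx2KD and Sirt1KO (vertical axis, ± SE, 3 libraries a group) for the named members, sorted within higher (red) and lower (blue) members; open points had a limma adjusted p of 0.05 or more. Meg3, Rian, Usp26 and Porcn rose most among lower members, Tgm1 fell most among higher members, and Dio3 and 2410004A20Rik moved farther from the wild-type groups.

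The wild-type states themselves differed at many members, which the rule uses only as the bounds of its range. Between EpiLC and WT ESC, 35.8% of all loci were called higher and 38.8% lower in EpiLC (74.6% in either direction). Of the 58 higher members 2 were higher and 30 lower in EpiLC, with a median of -0.31 log2 units, and of the 43 lower members 17 were higher and 8 lower, with a median of 0.08. Epha4, Ildr1, Dio3, Mme and 2410004A20Rik are examples of the first kind, and Lef1, Egln3, Tcf15, Skil and Mgp, the matrix Gla protein, of the second. In these genes the knockout ESC lay beyond WT ESC on the side away from EpiLC. Usp26, Rian, Ept1 and Cyct are examples of the opposite order, lower in EpiLC than in ESC and lower still in the knockout groups.

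Unlike the epithelial and germline lists above, the fibroblast and feeder list and the trophoblast list held no members. Levels of fibroblast and trophoblast genes still differed between the groups compared. Of the 22 tested genes of the fibroblast and feeder list, 0 were members. Against WT ESC, 0 were called higher and 21 lower in Sirt1KO (32.4% and 32.7% of all loci), with a median log2 difference of -1.81, and 18 higher and 2 lower in Sirt1KO Otx2KD (27.1% and 26.8%), with a median of 0.53. Between the knockout groups 21 were called higher and 0 lower in Sirt1KO Otx2KD (31.1% and 31.5%), with a median of 2.44. The group with the lowest mean was Sirt1KO for 20 of the 22 genes and EpiLC for 2. Col3a1, a fibrillar collagen chain, was at 36.3 ± 2.88 FPKM in WT ESC, 15.5 ± 0.387 in EpiLC, 2.10 ± 0.0896 in Sirt1KO, then 75.2 ± 0.761 in Sirt1KO Otx2KD. The summed level was 700.6 to 751.7 FPKM in WT ESC libraries, 208.9 to 220.8 in EpiLC, 313.2 to 351.6 in Sirt1KO, then 795.2 to 803.6 in Sirt1KO Otx2KD. Most of this sum was the secreted matrix protein Sparc in WT ESC and Sirt1KO, at 516.7 ± 10.9 and 302.2 ± 25.01 FPKM, so the sum does not show the order of most of the genes. The part of such cells in the differences of the members was not tested. Fewer cells of a type and less RNA per cell cannot be told apart in these bulk libraries. Of the 9 tested genes of the trophoblast list, 6 were called higher and 2 lower in Sirt1KO against WT ESC (32.4% and 32.7% of all loci), with a median of 0.61. In Sirt1KO Otx2KD against WT ESC, 1 was called higher and 2 lower (27.1% and 26.8%), with a median of -0.17. Between the knockout groups 2 were higher and 6 lower in Sirt1KO Otx2KD (31.1% and 31.5%), with a median of -0.64. The summed level of the trophoblast list was 97.0 to 102.9 FPKM in WT ESC, 43.5 to 45.8 in EpiLC, 76.6 to 80.1 in Sirt1KO, then 77.3 to 78.8 in Sirt1KO Otx2KD. Most of this sum in WT ESC was Tfap2c, a transcription factor that naive ESC also express, at 80.1 ± 2.70 FPKM. The list had the defining markers Prl3d1 and Tpbpa at 0 in all 12 libraries. The neural, mesendoderm and primitive endoderm lists, of which 8, 3 and 8 genes were tested, and the 2-cell-like list, of which 0 were, also held no members. The naive pluripotency list held 0 members among 20 tested genes, but its levels differed between groups. Against WT ESC, 3 were called higher and 16 lower in Sirt1KO (32.4% and 32.7% of all loci), with a median of -0.43. In Sirt1KO Otx2KD 5 were called higher and 7 lower (27.1% and 26.8%), with a median of -0.10. Between the knockout groups 13 were higher and 3 lower in Sirt1KO Otx2KD (31.1% and 31.5%), with a median of 0.34.

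Promoter sequence and gene length were properties that the rule did not use. A RefSeq promoter of 300 bases (250 before and 50 after the start, GRCm38.p6) was found for 35 of the 50 higher and 25 of the 41 lower genes. They held a median of 17 and 11 CpG, against 21 in the 7396 promoters of tested loci, and their median GC content was 60.7% and 58.3%, against 61.3%. The octamer ATGCAAAT, searched on both strands, was in 0 of the 35 and in 2 of the 25 (8.0%), those of Egln3 and Dll1 printed above, and in 1.57% of the promoters of tested loci. The ETS letters CCGGAA were in 20% and 16% against 29.0%, the E-box CACGTG in 2.86% and 4.0% against 10.6%, and the bicoid letters TAATCC, which Otx2 binds, in 5.71% and 4.0% against 5.34%. The STAT letters TTCNNNGAA were in 8.57% and 12.0% against 6.76%, and the TATA letters TATAAA in 11.4% and 8.0% against 6.60%. Each of these shares rests on 7 or fewer members, and a match is only a match of letters. The genes themselves had a median locus length of 38.3 kb among higher and 18.5 kb among lower members, against 24.7 kb over tested loci.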

How the data were processed

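RNA of 12 mouse libraries was selected with oligo-dT and sequenced, per the labels' protocols. The authors aligned reads to mm9 and deposited FPKM per locus (TopHat, Cufflinks and Cuffdiff, per the submitters' processing notes, with no versions given). How library sizes were set and whether strand was used are not given in the sources used here, and values of overlapping loci may not be separable. This concerns 14 higher and 10 lower members that share coordinates with another named locus, with Vax2, Mosc2 and Padi2 among the higher ones. The total number of reads is unknown and only relative depth was estimated, so no counting interval is given. Values at the shortest loci can stand for few fragments.

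Group means of log2(FPKM + 1) chose the members. The 12320 named loci with at least 1 FPKM in at least 3 libraries were fitted in limma 3.58.1 (R 4.3.3; a mean per group, 8 residual degrees of freedom, eBayes with its trend and robust options), with Benjamini-Hochberg adjusted p under 0.05 called. Every limma value above comes from this fit, which was tested on simulated data. The members and gene lists were chosen with earlier results of these data known. Genes were named by margin (the 12 widest in each direction of at least 5 FPKM on the side where they were high), list, difference between the knockout groups (6 in each direction), nearness to the margin and shared neighbours; the other named members are examples chosen after their values were seen, and some members are counted but not reported by name here. Locus coordinates come from the deposited tables, are read as mm9 and count from 1. Other pseudocounts, scalings, margins, filters, fits and left-out libraries were tried.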

Additional observations from a re-analysis of the deposited data

Results flagged for a closer look

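The same margin was applied to data that the rule leaves out. Among 4168 unnamed loci on the kept chromosomes, 78 were higher and 58 lower in both Sirt1KO groups than in both wild-type groups. Among 1089 named loci on chromosome 8, 4 were higher (Ccl25, Sfrp1, Nat2 and Snord111). Among 1718 on chromosome 11, 2 were higher (Mir324 and Atp2a3) and 10 lower, Pik3ip1 and Spred2 among them. Among 14 on chromosome Y, 3 were lower (Eif2s3y, Uty and Ddx3y). Eif2s3y was at 28.9 ± 1.48 FPKM in wild-type ESC, 4.52 ± 0.857 in EpiLC, 0.0961 ± 0.0735 in Sirt1KO, then 0.417 ± 0.305 in Sirt1KO Otx2KD (SD, n = 3). In the same order of groups, mean FPKM was 4.99, 1.27, 0.0057 and 0.0563 for Uty and 14.4, 2.81, 0.0197 and 0.267 for Ddx3y. The wild-type groups thus also differed from each other for these 3 genes.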

How the results depend on the processing

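The size of the set depends on the scale and on the margin. The 61 higher members became 171 with a pseudocount of 0.1, 116 with a margin of 0.6, 35 with a margin of 1, and 40 when every knockout library had to pass the margin. The 43 lower members became 138, 94, 25 and 26 under the same settings, and 65 with a pseudocount of 0.5. Smaller pseudocounts add loci with low FPKM. Leaving out each library in turn gave 59 to 67 higher and 40 to 48 lower members. With the regional median removed, an alternative chosen after the data were seen, 43 were higher, 42 of them shared with the 61, and 45 lower, 33 of them shared with the 43. The counts of members called between the knockout groups stayed within 1.5 times under every alternative run, at 10 to 13, 12 to 17, 12 to 14 and 4 to 7 with a library left out, against 13, 14, 14 and 5. With the replicate block the counts were again 13, 14, 14 and 5, and same-numbered libraries did not deviate together (correlations -0.11, -0.03 and -0.02). Of the 44 named genes, 36 kept their call in all settings run and none changed direction. Vamp8 and Elmod3 (up to adjusted p = 0.188 and 0.147, without Sirt1KO replicates 1 and 2), Tmsb10 (0.0734 without Sirt1KO replicate 3, 0.074 without Sirt1KO Otx2KD replicate 1), Zic2 (0.12 without Sirt1KO replicate 2) and Ccdc136 (0.0892 without Sirt1KO replicate 1) lost their limma call in some setting. Eras (0.00844 without Sirt1KO replicate 1), Tcf15 (0.0495 without Sirt1KO Otx2KD replicate 2) and Retsat (0.0489 without EpiLC replicate 3) gained one. The cause was not tested.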
